A study of Mus musculus with 12 samples.

Results

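The earliest tumor stage in this series was compared with tumor-free ovaries: 3 arrays labelled stage I against 6 control arrays, chosen by their genotype and tumor stage labels, 9 of the 12 arrays in all. Each gene was read by 1 probe set, and 10949 genes of 16376 probe sets were compared. Whole ovaries of female mice were taken at 23 weeks of age and at diestrus, a quiet phase between ovulations, and their RNA was measured on Affymetrix arrays. The controls carried Pgrcre/+ and had no tumor. The stage I ovaries were Pgrcre/+PgrBLsL/+. All 9 samples therefore carried Cre recombinase at 1 allele of the progesterone receptor gene, so Cre is expected where that gene is active, which is not in the ovary alone. How PgrBLsL is built is not described in the labels. The series title speaks of constitutive expression of progesterone receptor isoforms. All stage I ovaries had both the allele and a tumor, and the controls had neither, so that effects of allele and tumor cannot be told apart. The remaining 3 arrays, of stage II, served the estimate of the spread and 1 comparison of the stages. Replicates are labelled as biological, with no animal numbers.

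The progesterone receptor is a nuclear receptor that binds DNA when progesterone occupies it and switches target genes on or off. In the ovary it is made for a short time in granulosa cells of follicles that have received the luteinizing hormone surge, and it is needed for their rupture at ovulation. At diestrus, away from that surge, little of it is made in granulosa cells.

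Values are log2 signals, on which a difference of 1 is a 2-fold change, and a gene was called where the adjusted p (limma, Benjamini-Hochberg over all genes) was under 0.05. The 9 arrays had medians of 7.09 to 7.14 and correlated at 0.982 to 0.997. Ovarian markers were high in every array: Inha, the inhibin alpha subunit, lay at 13.3 to 13.7 and Cyp17a1, an androgen-making enzyme of theca cells, at 10.8 to 12.7. Stage I replicate 1 stood farthest from the controls, with correlations of 0.982 to 0.989 against 0.991 to 0.995 for replicate 3. Control replicates 1 and 4 had the highest luteal and cholesterol synthesis levels. Ovgp1, an oviduct glycoprotein, was at 12.70 in control replicate 5 and 11.77 in stage I replicate 2, against 6.16 to 8.70 in the other 7 arrays. Many results that rest on these arrays are given with and without them, but not all. In whole tissue, fewer cells of a type and less RNA per cell cannot be told apart.

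In stage I, 21 genes rose and 0 fell, which is 0.192% of all genes higher and 0% lower; at an unadjusted p under 0.05, limma had 414 (3.78%) higher and 284 (2.59%) lower. The rises ran from 2.51-fold to 102-fold, with 8 above 10-fold, 6 from 4-fold to 10-fold and 7 below 4-fold. They comprised the progesterone receptor itself, an antimicrobial pair, proteins known from plasma, placenta and seminal vesicle, epithelial surface proteins, cyclin D1 and Noxa, matrix and growth factors, and enzymes and transporters of fuel metabolism. These genes are described below by role, with every stage I value in the order of replicates 1, 2 and 3.

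**Figure D1:**
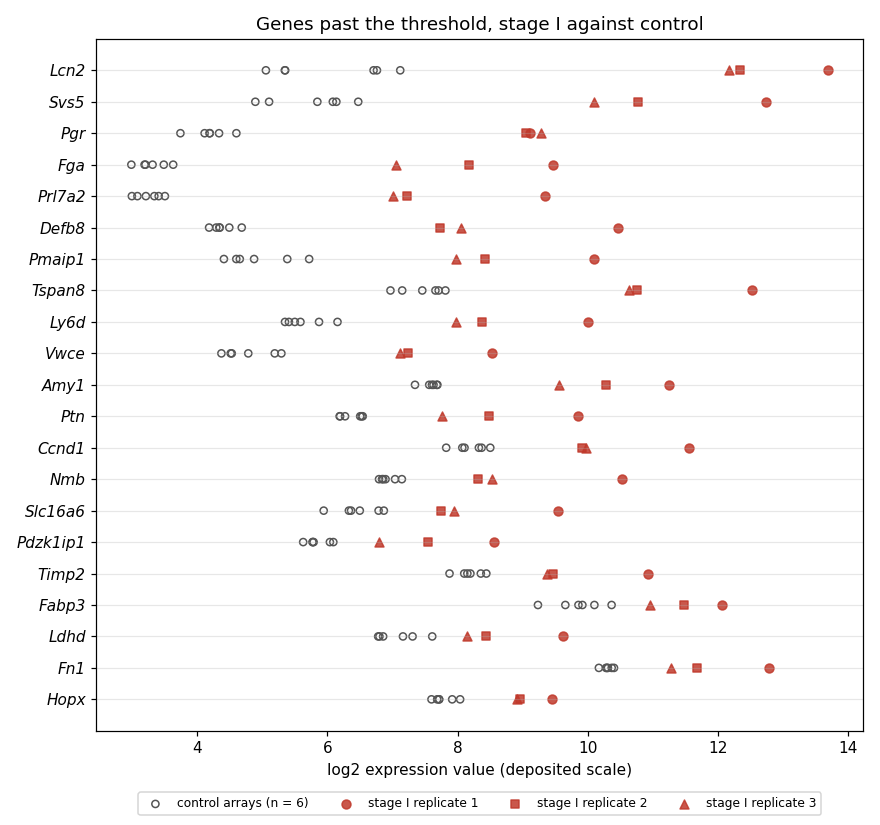
Log2 values (horizontal axis) of the 21 genes called in stage I (rows, ordered by size of change); open circles are the 6 control arrays, red symbols the 3 stage I arrays. In every row all red symbols lie to the right of all circles, and replicate 1 (red circle) is the farthest right in 20 of 21 rows, Pgr being the exception.

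Pgr, the gene that the altered allele is named for, was read by 1 probe set. Its log2 value was 3.74 to 4.60 in the controls (median 4.19) and 9.11, 9.05 and 9.28 in stage I. The 3 stage I arrays lay within 0.226 of each other, the narrowest spread of the 21 genes, and all were far above the controls. The difference was 4.95 ± 0.15 (SE), 30.9-fold, with an adjusted p of 2.40e-09 by limma. The probe set's place in the transcript was not looked up, so the value does not tell isoforms or alleles apart. Of the list of steroid receptors and cofactors, 13 of 18 members were measured, 1 rose (Pgr) and 0 fell, and the median difference was 0.0069 beside -0.0015 over all genes. The estrogen receptor genes Esr1 and Esr2 differed by 0.094 and -0.002, and neither passed.

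Of 32 known target genes of the receptor, 24 were measured, and 0 rose and 0 fell. Their median difference was 0.015, with 12 members above 0 and 12 below. Stage I lay above all controls in 3 members and below all controls in 1, where over all genes the shares were 2.23% and 1.45%. The largest difference was that of Zbtb16, a zinc finger repressor induced by progestins and glucocorticoids, which lay at 4.46 to 6.17 in controls and 7.16, 6.19 and 6.40 in stage I (1.10 ± 0.35 SE, adjusted p 0.530). All stage I values of this Zbtb16 probe set were above the highest control, replicate 2 by very little. The other Zbtb16 probe set was at 5.77 to 6.39 in controls and 6.32, 6.00 and 6.17 in stage I, within the controls (0.11, adjusted p 0.982). Hand2, a progesterone-induced factor of the uterine stroma, was at 4.05 to 4.39 and 5.26, 4.39 and 4.63 (difference 0.55, adjusted p 0.336), and its groups overlapped.

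Lcn2 and Defb8, which encode secreted proteins of antimicrobial defence, both rose. Lcn2, a lipocalin that withholds iron from bacteria by binding their siderophores, was at 5.06 to 7.12 in the controls (median 6.03) and at 13.70, 12.34 and 12.17 in stage I. It had the largest change of the 10949 genes tested, 6.68 ± 0.48 (SE) or 102-fold (adjusted p 4.03e-05, limma). The controls themselves were spread over 2 log2 units, yet the lowest stage I value was far above the highest of them. Defb8, a beta-defensin peptide, was at 4.18 to 4.69 in the controls (median 4.34) and 10.46, 7.72 and 8.05, with replicate 1 well above the other stage I arrays. Its difference was 4.35 ± 0.47, 20.4-fold (adjusted p 0.00104), and without stage I replicate 1 it was 3.50 (adjusted p 3.45e-05). Of the 20 genes listed as secreted innate defence, 10 were measured and 2 rose, with a list median of 0.19. Defb1, another beta-defensin, was at 5.01 to 6.39 in controls and 10.32, 7.90 and 8.08 in stage I (3.03 ± 0.55, adjusted p 0.0576). Its dimmer probe set was at 3.56 to 3.92 in controls and 11.31, 8.47 and 8.87 in stage I (5.82, adjusted p 0.000128), so the Defb1 call depended on the probe set. The other 7 measured members lay between -0.27 (Ptx3) and 0.24 (S100a8).

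Lcn2 is also abundant in neutrophils, and the neutrophil list was checked beside it. Of 14 markers 9 were measured; Lcn2 rose and the other 8 lay between -0.079 (Elane) and 0.24 (S100a8), for a median of 0.08. Of those 8, 6 were above 0, none past the threshold: Mmp9, Camp, Cxcr2, Ngp and Csf3r differed by 0.19, 0.15, 0.08, 0.07 and 0.062, and below 0 lay Elane and, at -0.035, Mpo. With Lcn2 among its members, the mean deviation of the list from the control mean was 0.96, 0.79 and 0.70 in stage I against -0.14 to 0.10 in controls. Lcn2 itself deviated by 7.64, 6.29 and 6.11. A mean without Lcn2 was not taken, so the list mean does not tell how the other 8 lay in each array.

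Fga, Prl7a2 and Svs5 encode secreted proteins known from liver, placenta and seminal vesicle. Fga, the alpha chain of fibrinogen, was at 2.99 to 3.63 in the controls (median 3.26) and 9.47, 8.18 and 7.05 in stage I. The difference was 4.93 ± 0.37 (SE), 30.4-fold (adjusted p 4.63e-05, limma); it was 4.31 without stage I replicate 1 (adjusted p 5.83e-06) and 5.52 without replicate 3 (adjusted p 1.68e-06). The other fibrinogen chains did not pass: Fgb was at 3.91 to 4.17 in controls and 7.32, 5.71 and 4.92 in stage I (1.93 ± 0.46, adjusted p 0.267), and Fgg, named after its values were seen, at 3.64 to 4.10 and 5.64, 4.54 and 4.33 (0.93 ± 0.40, adjusted p 0.747). All 3 chains had every stage I value above every control, as had 2.23% of all genes. In each chain replicate 1 was the highest and replicate 3 the lowest. Among 14 measured of 20 liver plasma protein genes, Fga rose, 0 fell, and the median was 0.025. Alb, albumin, differed by -0.13.

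Prl7a2, a placental member of the prolactin family, was at 3.00 to 3.51 in the controls (median 3.28) and at 9.34, 7.22 and 7.01 in stage I. The stage I values were all clear of the controls. The difference was 4.60 ± 0.39, 24.2-fold (adjusted p 0.000147), and 3.86 without stage I replicate 1 (adjusted p 1.94e-07). Of the 22 family genes 10 were measured, and the other 9 lay between -0.036 (Prl8a6) and 0.095 (Prl2b1), with a list median of 0.039. Svs5, a secretory protein of seminal vesicle fluid, was at 4.89 to 6.47 in the controls (median 5.97) and 12.74, 10.78 and 10.10. Its difference was 5.45 ± 0.51, 43.7-fold (adjusted p 0.000293), and 4.68 without stage I replicate 1 (adjusted p 0.000213). Svs6, a related gene, was at 3.92 to 4.49 in controls and 9.79, 6.69 and 6.56 in stage I (3.43 ± 0.61, adjusted p 0.0505) and just missed the threshold. Of 12 seminal vesicle genes 8 were measured, 1 rose, and the median was 0.056. Apart from Svs5 and Svs6, the members lay between -0.13 (Svs2) and 0.19 (Pate4).

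Tspan8, Ly6d and Pdzk1ip1 encode proteins of the epithelial cell surface. Tspan8, a tetraspanin found in many carcinomas, was at 6.97 to 7.81 in the controls (median 7.56) and 12.52, 10.76 and 10.64 in stage I, with no overlap. It rose by 3.85 ± 0.34 (SE), 14.4-fold (adjusted p 0.000192, limma), and by 3.24 without stage I replicate 1 (adjusted p 7.64e-06). Ly6d, a lipid-anchored protein of the Ly6 family, was at 5.35 to 6.16 in the controls (median 5.54) and 10.00, 8.38 and 7.97. The change was 3.14 ± 0.34, 8.80-fold (adjusted p 0.00104), and 2.53 without stage I replicate 1 (adjusted p 7.49e-05). Pdzk1ip1, a small membrane protein that binds the scaffold PDZK1, was at 5.63 to 6.09 in the controls (median 5.78) and 8.55, 7.55 and 6.79, the lowest stage I value lying not far above the highest control. It changed by 1.78 ± 0.27, 3.44-fold (adjusted p 0.0155). The Pdzk1ip1 call ended without control replicate 1, control replicate 2 or stage I replicate 2 (adjusted p 0.0507 to 0.0558). Of 21 epithelial markers 13 were measured and all were above 0: 2 rose (Tspan8 and Ly6d), 0 fell, and the median was 0.21, which was 0.064 without stage I replicate 2 (the one high in Ovgp1) and 0.11 without control replicates 1 and 4. Krt8, a keratin of simple epithelia, was at 8.45 to 9.33 and 10.41, 9.72 and 9.36 (0.81 ± 0.32, adjusted p 0.688). With Tspan8 and Ly6d among its members, the epithelial list mean was 1.00, 0.89 and 0.48 in stage I against -0.39 to 0.37 in controls. A mean without these 2 was not taken, so it does not tell how the other members lay in each array.

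Ccnd1, Pmaip1 and Hopx, with roles in the cell cycle, apoptosis and differentiation, also rose. Ccnd1, cyclin D1, which drives the passage from G1 into S phase, was at 7.83 to 8.50 in the controls (median 8.22) and 11.56, 9.91 and 9.97 in stage I. All stage I values were more than 1 log2 unit above the highest control. The difference was 2.28 ± 0.30 (SE), 4.85-fold (adjusted p 0.00536, limma). Pmaip1, which encodes Noxa, a BH3-only protein that promotes apoptosis, was at 4.41 to 5.72 in the controls (median 4.77) and 10.10, 8.42 and 7.97. It changed by 3.89 ± 0.40, 14.8-fold (adjusted p 0.000743), and by 3.25 without stage I replicate 1 (adjusted p 0.000344). Hopx, a homeodomain protein that does not itself bind DNA, was at 7.60 to 8.04 in the controls (median 7.72) and 9.45, 8.96 and 8.91. Its rise of 1.33 ± 0.15, 2.51-fold, was the smallest of the 21 and had an adjusted p of 0.00104, with a narrow spread in both groups.

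The lists around these genes held no other called gene but Fn1. Of 20 G1 cell cycle genes 17 were measured, Ccnd1 rose, 0 fell, and the median was 0.037. Cdkn1b, the inhibitor p27, named after its value was seen, had the lowest value of that list at -0.74, below all controls and not past the threshold. Among 19 measured of 25 proliferation genes 0 rose or fell, 12 were above 0, and the median was 0.013. The largest difference there was in Rrm2, a subunit of the enzyme that makes deoxyribonucleotides, at 7.52 to 8.47 in controls and 9.38, 8.63 and 8.69 in stage I (0.94 ± 0.24, adjusted p 0.278), and Mcm5, a helicase subunit, differed by 0.20. Of the 20 p53 targets 13 were measured, Pmaip1 rose, 0 fell, and the median was 0.061. Stage I lay above all controls in 3 of them, Pmaip1, Mdm2 (0.28) and Ccng1 (0.18), and in 2.23% of all genes. Of 17 Bcl2 family genes 13 were measured, with Pmaip1 again the 1 that rose, 10 of 13 below 0, and a median of -0.041. Among the anti-apoptotic members, Mcl1 and Bcl2l1 differed by 0.09 and 0.13, and Bcl2 and Bcl2l2 by -0.051 and -0.13. Of 20 Wnt targets 13 were measured, 2 rose (Ccnd1 and Fn1), 0 fell, and the median was 0.068.

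Fn1, Timp2, Ptn, Nmb and Vwce, which encode secreted proteins, were higher. Fn1, fibronectin, was at 10.17 to 10.40 in the controls (median 10.30) and 12.78, 11.68 and 11.28 in stage I, a rise of 1.61 ± 0.24 (SE), 3.05-fold (adjusted p 0.0151, limma). Timp2, an inhibitor of matrix metalloproteinases, was at 7.88 to 8.44 in the controls (median 8.17) and 10.93, 9.47 and 9.37, a rise of 1.73 ± 0.27, 3.33-fold (adjusted p 0.0195). Ptn, pleiotrophin, a heparin-binding growth factor, was at 6.19 to 6.54 in the controls (median 6.39) and 9.85, 8.48 and 7.76, and changed 5.01-fold (2.32 ± 0.35, adjusted p 0.0151). The control values of Ptn spanned a narrow range, and those of stage I more than 2 log2 units. Nmb, the bombesin-like peptide neuromedin B, was at 6.79 to 7.14 in the controls (median 6.88) and 10.52, 8.32 and 8.52, a rise of 2.19 ± 0.37, 4.57-fold (adjusted p 0.0367), and of 1.49 without stage I replicate 1 (adjusted p 0.000466). Vwce, a secreted protein with von Willebrand factor C domains, was at 4.37 to 5.29 in the controls (median 4.66) and 8.53, 7.23 and 7.12, 7.19-fold higher (2.85 ± 0.37, adjusted p 0.00442). No stage I value of these 5 genes overlapped the controls. Single arrays ended some of the calls: Timp2 was not called without control replicates 1, 2, 3 or 6 (adjusted p 0.0554 to 0.0604), Ptn without control replicate 1 or stage I replicate 2 (0.0503 to 0.0507), and Nmb without any 1 of the 6 controls (0.0802 to 0.0964). The Fn1 call ended when the 9 arrays were fitted without stage II (adjusted p 0.0573). In the list of fibroblast and matrix genes 0 of 14 were called. Of 14 genes of fibronectin and its integrins 13 were measured, Fn1 rose, 0 fell, and the median was -0.021.

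The last group holds enzymes, carriers and transporters. Amy1, an amylase that digests starch, was at 7.35 to 7.69 in the controls (median 7.62) and 11.26, 10.28 and 9.56 in stage I, a rise of 2.78 ± 0.31 (SE), 6.87-fold (adjusted p 0.00107, limma). Its close copies of the pancreatic amylase cluster could share the probe set's signal. Fabp3, a carrier of fatty acids in muscle, was at 9.23 to 10.37 in the controls (median 9.89) and 12.07, 11.48 and 10.96 (1.65 ± 0.25, 3.14-fold, adjusted p 0.0151). Ldhd, the mitochondrial dehydrogenase of D-lactate, was at 6.78 to 7.61 in the controls (median 7.01) and 9.62, 8.44 and 8.14 (1.65 ± 0.28, 3.13-fold, adjusted p 0.0418). Both were clear of the controls in every stage I array, replicate 1 being the highest. Slc16a6, a member of the monocarboxylate transporter family, was at 5.94 to 6.87 in the controls (median 6.43) and 9.54, 7.74 and 7.94 (1.94 ± 0.33, 3.84-fold, adjusted p 0.0418). The calls of Fabp3, Ldhd and Slc16a6 ended in several of the fits that left out 1 array. Fabp3 was not called without stage I replicate 1 or 2 (adjusted p 0.0572 to 0.0615), Ldhd without control replicates 1, 2, 3, 5 or 6 or stage I replicates 1 or 2 (0.0591 to 0.115), and Slc16a6 without any 1 of the 6 controls (0.0667 to 0.109).

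Across the 21 genes, 14 were called in each of the 9 fits that left out 1 array. Without control replicates 1 and 4 together 13 were called, and Fn1 (adjusted p 0.126) was lost besides the 7 named above. Without the 3 arrays highest in Ovgp1 (control replicate 5, stage I replicate 2 and a stage II array) 11 were called, all of them higher and all among the 21, with Fn1 (0.143), Vwce (0.0957) and Amy1 (0.0602) lost besides those 7. Fitted on the 9 arrays without stage II, 14 of the 21 were called; Fabp3, Fn1, Ldhd, Nmb, Pdzk1ip1, Slc16a6 and Timp2 were lost (adjusted p 0.0573 to 0.114). The 11 called without the 3 arrays were Pgr, Lcn2, Fga, Prl7a2, Tspan8, Svs5, Pmaip1, Defb8, Ly6d, Hopx and Ccnd1.

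The 3 stage I ovaries carried the rises to different extents. The called genes lay a median of 3.67, 2.45 and 1.97 log2 units above the control mean in replicates 1, 2 and 3. Replicate 1 had the highest value in 20 of 21 genes, whereas it was the highest of the 3 arrays in 36.7% of all genes tested and in 69.5% of the 223 uncalled genes above all controls. Replicate 3 was the lowest in 16 of the 21 and replicate 2 in 5. The SD was larger in stage I than in controls in 19 of 21, against 41.0% of all genes and 65.0% of those 223, and the median SD was 0.936 against 0.246. The exceptions in SD were Pgr and Lcn2. Between the highest and the lowest stage I array the gap ran from 0.226 in Pgr to 2.73 in Defb8, with a median of 1.76. Genes at least 1 log2 unit above their control mean numbered 111, 67 and 33 in replicates 1, 2 and 3, against 3 to 38 in single controls. Those at least 1 unit below numbered 98, 16 and 5, against 4 to 31 in the controls. As the model shares its spread over all groups, and stage I spread more than the controls, the SE of these genes is an average over unlike spreads.

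**Figure D2:**
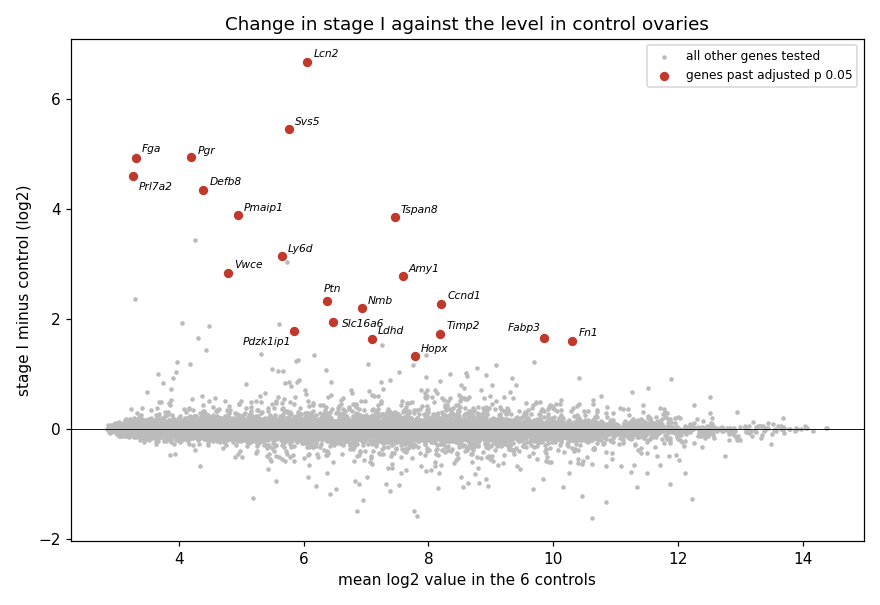
Difference between stage I and control means (vertical axis, log2) against the mean log2 value in the 6 controls (horizontal axis); grey points are genes not called and red points the 21 called genes, labelled. The called genes all lie above 0, and their control means run from 3.26 in Prl7a2 to 10.3 in Fn1; values of different probe sets do not rank the genes by abundance.

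Other probe sets of the same genes gave the same direction. Of the 21 genes 4 had more than 1 probe set, with 7 further probe sets in all. All 7 were above 0, and 5 passed in a fit of all 16376 probe sets. The further probe sets of Svs5 differed by 5.29 and 5.58, and that of Ccnd1 by 2.14 (adjusted p 0.0269). Those of Tspan8 differed by 3.28, 2.55 and 1.60, of which the last did not pass (adjusted p 0.0776). Ldhd's second probe set differed by 1.46 and did not pass either (0.0752).

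The 250 bases before the starts of the called genes were searched for TGTTCT (both strands, so AGAACA too). TGTTCT is the 6-base core of the element that progesterone, glucocorticoid and androgen receptors bind. RefSeq promoters of assembly GRCm38.p6 were at hand for 16 of the 21 genes. The core was found in 5 of these 16 (Amy1, Defb8, Nmb, Ptn and Svs5), against 14.8% of the 8765 tested genes with a promoter and 16.1% of all 32851 promoters. The motif TATAAA, searched on the gene's strand and overlapping no TGTTCT, was found in 2, Amy1 and Svs5, against 7.2% of tested genes and 7.6% of all promoters. Shown are 4 promoters with the core, each written 5′ to 3′ towards the start site, with the core in capitals. For Amy1 it is that of the start with most matches. The other Amy1 start, not shown, has 1 match, beginning 242 bases before it, and holds the TATAAA of that gene.
Svs5, chr2:164332515-164332764, plus strand: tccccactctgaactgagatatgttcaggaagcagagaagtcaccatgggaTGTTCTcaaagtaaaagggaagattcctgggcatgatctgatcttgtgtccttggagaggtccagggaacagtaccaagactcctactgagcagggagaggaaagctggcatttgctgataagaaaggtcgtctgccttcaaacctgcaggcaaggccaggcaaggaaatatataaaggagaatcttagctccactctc
Defb8, chr8:19447607-19447856, minus strand: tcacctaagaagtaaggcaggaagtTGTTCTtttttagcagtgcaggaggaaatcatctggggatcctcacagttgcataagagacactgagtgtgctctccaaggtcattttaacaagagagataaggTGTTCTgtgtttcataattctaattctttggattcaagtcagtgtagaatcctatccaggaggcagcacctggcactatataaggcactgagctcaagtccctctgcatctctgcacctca
Ptn, chr6:36810180-36810429, minus strand: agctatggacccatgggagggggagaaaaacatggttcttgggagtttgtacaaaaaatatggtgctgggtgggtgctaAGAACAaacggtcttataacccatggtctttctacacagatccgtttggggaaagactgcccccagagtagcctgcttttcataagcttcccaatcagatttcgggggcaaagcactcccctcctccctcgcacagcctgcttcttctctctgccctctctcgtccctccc
Amy1, chr3:113577751-113578000, minus strand: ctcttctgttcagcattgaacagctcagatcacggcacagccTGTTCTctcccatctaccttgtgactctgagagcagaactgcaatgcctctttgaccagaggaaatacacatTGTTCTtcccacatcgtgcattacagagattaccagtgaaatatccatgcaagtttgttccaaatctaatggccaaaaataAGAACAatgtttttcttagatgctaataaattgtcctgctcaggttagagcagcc
The matches begin 199 bases before the start in Svs5, 225 and 121 in Defb8, 171 in Ptn, and 208, 136 and 55 in Amy1. They describe the letters only; binding was not measured.

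Below the threshold, the 3 stage I arrays lay above all 6 controls in 223 further genes (244 with the called ones, 2.23% of all) and below them in 159 (1.45%). The largest of the higher ones are given as values, none of them called. Besides Svs6, Defb1 and Fgb above, Tdo2, which opens the ring of tryptophan, was at 3.23 to 3.37 in controls and 7.71, 5.09 and 4.20 in stage I (2.36 ± 0.63 SE, adjusted p 0.347). Apoh, a plasma glycoprotein, was at 5.22 to 5.99 and 8.78, 6.97 and 6.77 (1.91 ± 0.37, adjusted p 0.0803), and passed without replicate 3 (2.27, adjusted p 0.0391). Aadat, a mitochondrial aminotransferase, was at 4.18 to 4.66 and 7.95, 5.32 and 5.79 (1.87 ± 0.46, adjusted p 0.278). In all of these replicate 1 stood above the other stage I arrays. Gldc, the glycine decarboxylase, was at 4.02 to 4.58 and 7.07, 5.38 and 5.39 (1.65 ± 0.31, adjusted p 0.0720), and passed when replicate 1 was left out (1.09, adjusted p 0.0218) or replicate 3 (1.93, 0.0497). Gsta3, a glutathione transferase, was at 6.67 to 7.79 and 10.00, 8.04 and 8.30 (1.52 ± 0.40, adjusted p 0.322).

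Among genes lower in all stage I arrays, the largest difference was that of Slc12a8, a solute carrier, at 6.87 to 9.22 in controls and 5.66, 6.34 and 6.69 in stage I (-1.59 ± 0.57 SE, adjusted p 0.621). Pik3c2g, a class II phosphoinositide kinase, was at 6.45 to 7.30 and 5.32, 6.02 and 4.73 (-1.49 ± 0.43, adjusted p 0.424), with replicate 3 the lowest. Star, which carries cholesterol into mitochondria for steroid synthesis, was at 11.49 to 13.22 and 11.34, 11.22 and 11.39 (-0.80 ± 0.41, adjusted p 0.846). Control replicates 1 and 4 held the highest values of Slc12a8, Star and Apof, an apolipoprotein (-0.95). Without them the differences were -0.95, -0.35 and -0.33. Emb, an adhesion glycoprotein (-1.05), Pappa, a protease that frees insulin-like growth factors (-0.99), Cited4, a transcriptional cofactor (-0.97), and Bcl6, a transcriptional repressor (-0.82), completed the 8 lowest, with adjusted p of 0.278 to 0.425. Control replicates 1 and 4 were also the highest controls in Pik3c2g, Pappa and Cited4. Without them these differences were -1.31, -0.73 and -0.78.

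In all, 32 gene lists were set beside the comparison, with 341 of 513 genes measured. Called genes fell in 12 lists, and in 20 lists 0 members were called. Of the 21 called genes 11 were on a list. Over all genes the median difference was -0.0015, with 49.3% above 0. The lists not yet described had 0 called members each, so that their values are given as levels and differences only.

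**Figure D3:**
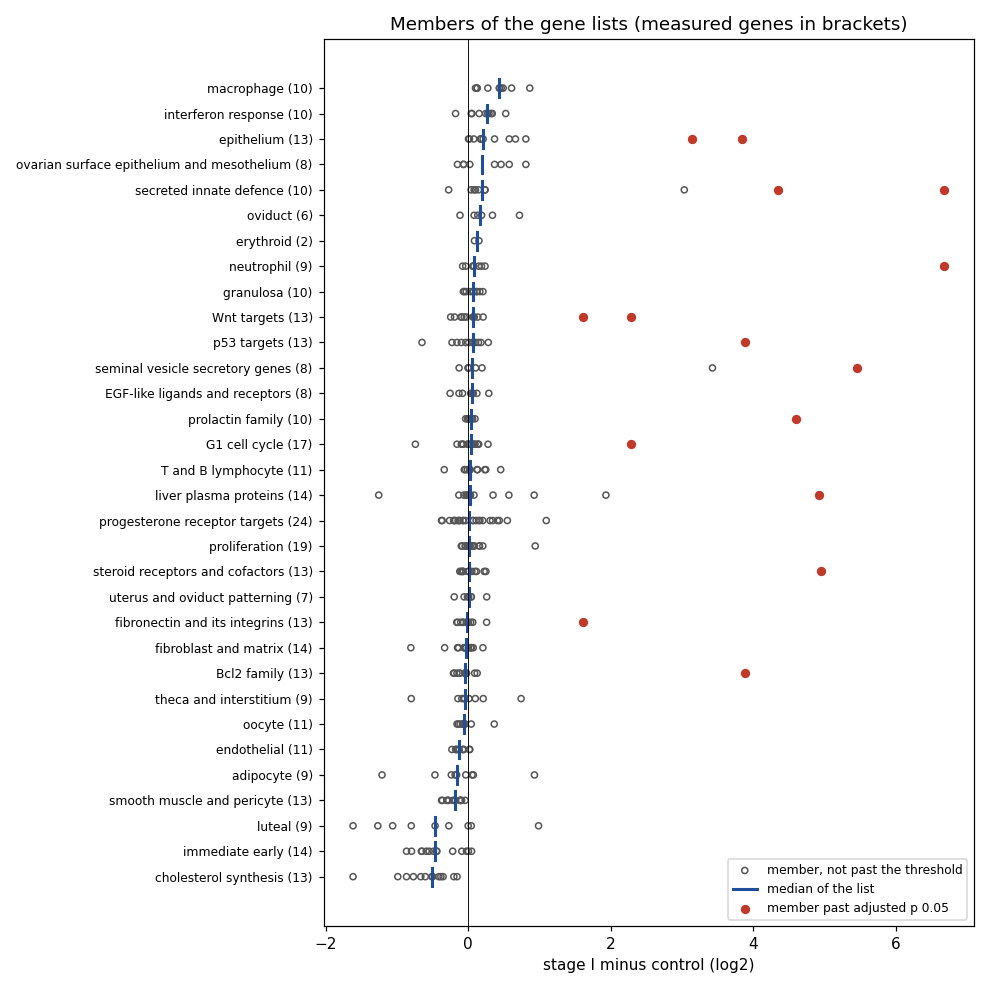
Difference between stage I and control (horizontal axis, log2) for each measured member of the 32 lists (rows, ordered by median, number measured in brackets); red points are called genes, open circles the others, and blue bars the medians. Cholesterol synthesis has the lowest median, -0.51, and macrophage the highest, 0.44, while most red points stand far to the right of the other members of their list.

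Immune lists differed in how far they lay from 0. All 10 measured macrophage markers of 15 were above 0, with a median of 0.44. Stage I lay above all controls in 3 of them, and in 2.23% of all genes. Cd14, a receptor for bacterial lipopolysaccharide, was at 6.99 to 7.45 in controls and 8.75, 7.78 and 7.76 in stage I (0.86 ± 0.21 SE, adjusted p 0.278), and Aif1, a macrophage calcium-binding protein, at 6.97 to 7.34 and 8.19, 7.36 and 7.67 (0.61 ± 0.17, adjusted p 0.363). The list mean was 0.77, -0.0009 and 0.41 in stage I replicates 1, 2 and 3 against -0.088 to 0.13 in controls, so replicate 2 lay within the controls. Without replicate 1 the median was 0.22. Replicate 1 was the highest array both here and in 20 of the 21 called genes, and the part of macrophages in those genes was not tested. Of 15 T and B lymphocyte markers 11 were measured, with a median of 0.028; Cd3g, a chain of the T cell receptor complex, differed by 0.46 and Cd28, a costimulatory receptor, by -0.34, which turned to 0.052 without control replicate 4. Of 18 interferon response genes 10 were measured and 9 were above 0, with a median of 0.26 that was 0.076 without replicate 1. Usp18, which removes ISG15 from proteins, differed by 0.53 and Irf7, an interferon regulatory factor, by 0.34. Only 2 of 9 erythroid genes were measured: Hba-a2, an alpha globin, differed by 0.15 and Slc4a1, the red cell anion exchanger, by 0.087 (median 0.12).

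The medians of the stroma and vessel lists were below 0, that of smooth muscle in every fit and the others not in every one. All 13 measured smooth muscle and pericyte markers of 16 were below 0, with a median of -0.19. Stage I lay below all controls in 5 of 13, and in 1.45% of all genes. Cnn1, calponin of smooth muscle, was at 8.54 to 8.82 in controls and 8.37, 8.23 and 8.43 in stage I (-0.37 ± 0.08 SE, adjusted p 0.144). Cspg4, a pericyte proteoglycan, was at 6.67 to 6.86 and 6.19, 6.50 and 6.43 (-0.36 ± 0.086, adjusted p 0.259). The list mean was -0.28, -0.17 and -0.16 in stage I, below the -0.076 to 0.045 of the controls in every array. Of 15 endothelial markers 11 were measured, with a median of -0.13, and of 0.032 without control replicates 1 and 4. Pecam1 and Cldn5, junction proteins of endothelium, differed by -0.23 and -0.18, and by -0.089 and -0.15 without these controls. Of 18 fibroblast and matrix genes 14 were measured (median -0.037, and 0.009 without stage I replicate 1). In that list Tnc, tenascin C, was at 9.30, 11.13 and 11.65 against 10.86 to 12.05 (-0.81, adjusted p 0.887), low in replicate 1 alone, and Thy1, a fibroblast surface protein, differed by -0.33. Of 13 adipocyte markers 9 were measured (median -0.16, and 0.035 without stage I replicate 1). Plin4, a lipid droplet protein, was at -1.21 and Fabp4, a fatty acid carrier of fat cells, at 0.93, both with overlapping groups. Without control replicates 1 and 4, Plin4 and Fabp4 were at -0.63 and 0.60.

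**Figure D4:**
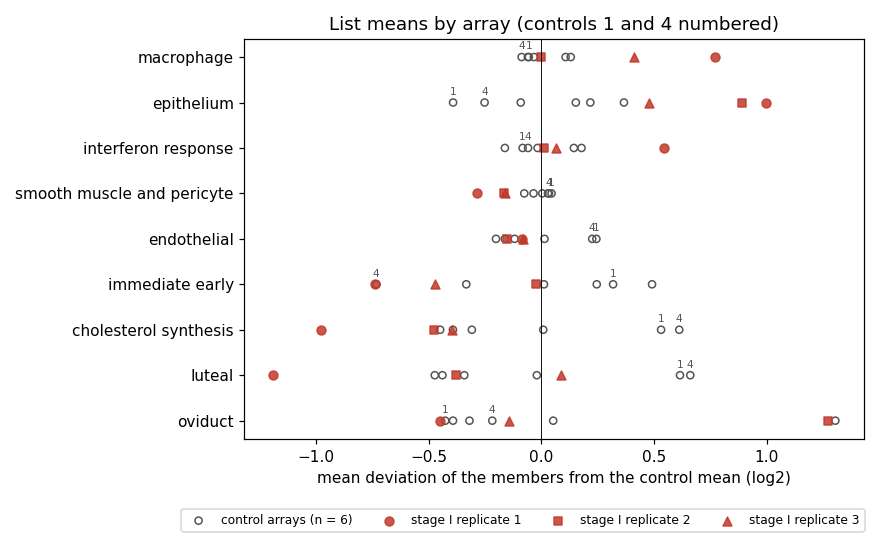
Mean deviation of list members from their control means (horizontal axis, log2) for 9 lists (rows), 1 symbol per array; open circles are the 6 controls, with replicates 1 and 4 numbered, and red symbols the 3 stage I arrays. Smooth muscle lies below the controls in all 3 stage I arrays, macrophage above them in replicates 1 and 3. The oviduct list is high in 1 control and in stage I replicate 2. Epithelium lies above the controls in all 3 stage I arrays, with the called genes Tspan8 and Ly6d among its members.

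Cholesterol synthesis and luteal genes varied widely between the control ovaries. All 13 measured cholesterol synthesis genes of 20 were below 0, with a median of -0.51. Stage I lay below all controls in 2 of them, and in 1.45% of all genes. Fdps, which makes farnesyl diphosphate, was at 10.91 to 13.16 in controls and 10.47, 11.08 and 11.11 in stage I (-0.99 ± 0.44 SE, adjusted p 0.769). Hsd17b7, an enzyme of both cholesterol synthesis and luteal cells, was at 9.32 to 12.14 and 7.55, 9.34 and 10.13 (-1.62 ± 0.75, adjusted p 0.788). The cholesterol list mean was -0.98, -0.48 and -0.40 in stage I and -0.45 to 0.61 in controls, of which replicates 1 and 4 were at 0.53 and 0.61. Without these 2 controls its median was -0.33, and Fdps and Hsd17b7 differed by -0.47 and -0.92. Of 14 luteal markers 9 were measured, with a median of -0.46 that was -0.14 without the same controls and -0.12 without stage I replicate 1. Akr1c18, which inactivates progesterone in the regressing corpus luteum, was at 10.47 to 13.59 in controls and 7.96, 11.66 and 13.25 in stage I (-1.27, adjusted p 0.948). The low value of Akr1c18 was that of replicate 1 alone, and the difference was 0.23 without it. Of 15 theca and interstitium markers 9 were measured (median -0.051), with Cyp17a1 at 0.74 and overlapping groups.

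The lists for cells of the follicle had medians near 0. Of 16 granulosa markers 10 were measured, with a median of 0.073 that was -0.046 without stage I replicate 1: Inhbb, an inhibin and activin subunit, differed by 0.21, and Fst, which binds activin, by 0.16, turning to -0.15 without stage I replicate 1. Of 21 oocyte markers 11 were measured, with a median of -0.061. Nlrp5, a maternal-effect gene of the egg, differed by -0.16 and Kit, the receptor of stem cell factor, by 0.37. The ovarian surface epithelium and mesothelium list had 8 of 14 genes measured and a median of 0.20, which was -0.10 without control replicates 1 and 4. Krt19, a keratin on that list, differed by 0.58 with overlapping groups, and by 0.14 without these controls.

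Oviduct markers were high in 1 control and 1 stage I array. Of 11 such markers 6 were measured, with a median of 0.16 (-0.26 without stage I replicate 2) and list means of -0.45, 1.27 and -0.15 in stage I; control replicate 5 was at 1.30. Ovgp1 differed by 0.72 between the groups and by -0.87 without stage I replicate 2, and Tppp3, a tubulin-binding protein, by 0.34. Of 9 patterning genes of uterus and oviduct 7 were measured (median 0.0061), with Foxa2, a factor of uterine glands, at 0.26 and Hoxd10 at -0.20. Among 14 measured of 18 immediate early genes, whose RNA responds quickly to many stimuli, 12 were below 0 (median -0.47). Fosb was at 4.72 to 7.59 in controls and 4.22, 6.14 and 5.25 in stage I (-0.87, adjusted p 0.888) and Egr2 at 5.95 to 8.42 and 5.88, 7.56 and 6.85 (-0.80, adjusted p 0.888), with wide overlap. The 8 measured of 12 EGF-like ligands and receptors had a median of 0.047, and Hbegf and Egf, ligands of the EGF receptor, differed by 0.29 and -0.25.

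The 21 genes were last set against stage II, where 6.54% of all genes were higher than in stage I and 5.97% lower. Of the 21, 17 were higher again in stage II and 0 were lower (limma, adjusted over all genes), and 10 were higher without the 3 arrays highest in Ovgp1. Pgr rose by a further 0.80 (adjusted p 0.0116), little beside its change from control to stage I. The other 4 were Lcn2 (1.37, adjusted p 0.126), Svs5 (1.48, 0.123), Fabp3 (0.74, 0.112) and Amy1 (0.50, 0.412), for which no further rise passed. Both comparisons use the same stage I arrays.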

How the data were processed

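RNA of 6 control, 3 stage I and 3 stage II ovaries was measured with 1 array each; per the labels' protocols, Trizol and spin columns were used for extraction and biotin as the label. The values that the authors deposited are log2 expression values per probe set, 2.69 to 14.4, with similar medians, so that a change in total RNA per cell cannot be seen. How signals were summarised and normalized is not given in the sources used here. Detection calls were not used, so no background limit is known.

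Of 16376 probe sets, 14674 carry 1 gene symbol in the platform annotation, 427 several and 1275 none; 14632 matched RefSeq (GRCm38.p6) by Entrez identifier. Only those with 1 symbol were used, and of these the brightest on average per gene (10949 genes). The model, limma 3.58.1 (lmFit, eBayes) in R 4.3.3, gave each group a mean over the 12 arrays, with 9 residual and 3.13 prior degrees of freedom; p-values were adjusted by Benjamini-Hochberg over all genes, with a threshold of 0.05. P-values measure the spread between these arrays, and their number limits the precision. The script was tested on simulated data. The simulated noise of a gene had the same SD in all groups, unlike most called genes. The test therefore does not bear on the p-values of those genes.

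Named are Pgr, all called genes, the 8 highest and 8 lowest uncalled genes whose groups do not overlap, and up to 4 called or else 2 leading members of each list; other list members and Fgg and Cdkn1b were named after their values were seen. The 32 lists hold 544 entries. Members, lists and rules were chosen with earlier results of these data known. Alternatives were quantile normalization, centring, no dim genes, the mean of probe sets or every probe set, the 9 arrays alone, array weights, a trended robust prior, a block, a 2-fold floor and each array left out; chosen after seeing the data were fits without controls 1 and 4, and without the 3 arrays highest in Ovgp1.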

Additional observations from a re-analysis of the deposited data

Results flagged for a closer look

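Among the control values of 75 named genes, 3 had 1 array far from the other 5, where chance gives about 1 in 20. Amy1 was 7.35 in control replicate 1, the next value being 7.56. Aadat was 4.18 in control replicate 6 (next 4.50), and Hba-a2 was 6.23 in control replicate 4 (next 6.93). The Amy1 value lies below the other controls, so it widens the distance to stage I.

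The stages differed in 17 of the 21 called genes by limma's test of stage II against stage I. The further log2 rises were 3.81 in Prl7a2, 3.57 in Ly6d, 3.17 in Defb8, 3.09 in Slc16a6, 2.93 in Fga, 2.73 in Ldhd, 2.48 in Vwce, 2.39 in Pmaip1; they were 2.32 in Nmb, 2.27 in Pdzk1ip1, 2.09 in Ccnd1, 2.05 in Hopx, 2.01 in Timp2, 1.99 in Tspan8, 1.68 in Ptn, 1.39 in Fn1 and 0.80 in Pgr.

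Outside the genes compared, 4 probe sets without a single gene symbol passed in a fit of all probe sets, and no gene is named for them. Probe set 1416325_at, with no symbol, had the largest change on the arrays, 8.81 or 449-fold: controls lay at 3.45 to 4.02 and stage I at 13.47, 12.08 and 12.27 (adjusted p 1.02e-09, limma). Probe set 1427760_s_at, with several symbols, was 4.68 higher (25.7-fold), 1422400_a_at, with several symbols, 2.36 higher, and 1425145_at, with no symbol, 1.70 higher. In all 4 replicate 1 was the highest stage I array.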

How the results depend on the processing

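The count of 21 called genes was 26 with quantile normalization, 24 with centred medians, 22 without the dimmest genes, 21 with the mean of probe sets or a 2-fold floor, 23 over every probe set, 15 with the 9 arrays alone (14 of the 21, and Chga), 27 with array weights and 17 with the trended robust prior. Leaving out single arrays gave 15 to 28. Dropping controls 1 and 4 gave 13, and dropping the 3 arrays highest in Ovgp1 gave 11, which also took the genes higher in stage II from 17 to 10; the cause was not tested. Deviations of arrays with the same replicate number (1, 2 and 3) correlated at -0.12, 0.038 and -0.088 between control and stage I. Between control and stage II they correlated at 0.20, 0.20 and -0.12, and between the stages at 0.026, 0.20 and -0.13. Arrays of unlike number were not correlated in this way, so whether the numbers pair the arrays is not known. With the replicate block 6 genes were called, 5 higher, all among the 21 (Pgr, Lcn2, Fga, Prl7a2 and Hopx), and 1 lower, Hddc3, and list members called went from 11 to 4; the log2 changes of the other 16 differed by -0.15 to 0.22 from those given, and the block takes up residual degrees of freedom. Pgr was called in all fits. Palmd was called lower with quantile normalization and with array weights, Mir22hg without control replicate 4 and Abcb1b without stage I replicate 2.

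Uncalled values changed sign in Akr1c18 (0.031 with array weights, 0.23 without stage I replicate 1; -2.41 at the lowest, without replicate 3), Cd28 (0.13 with array weights, 0.052 without control replicate 4, 0.34 without controls 1 and 4; lowest -0.59), Fst (-0.026 with array weights, -0.15 without stage I replicate 1; highest 0.45), Hba-a2 (-0.00109 with the replicate block) and Ovgp1 (-0.87 without stage I replicate 2; highest 1.91). Svs6 passed in 7 of the alternatives (adjusted p 0.0202 to 0.0491) and Defb1 in 4, over every probe set through its dimmer one. Of the 32 list medians 0 changed sign under quantile normalization or centring, 15 did in at least 1 alternative, and 8 when single arrays were left out (adipocyte, fibroblast and matrix, fibronectin and its integrins, granulosa, oviduct, progesterone receptor targets, proliferation, and uterus and oviduct patterning). Without the dimmest genes the list medians of liver plasma proteins, the prolactin family and seminal vesicle genes were 0.57, 4.60 and 4.44, as 5, 1 and 2 members were then left. No background limit is known, so what the dim signals can show is not known either.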

Other observations

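The genes here were chosen after their values were seen. In 69 of the 244 genes whose stage I arrays all lay above all controls, replicate 1 was not the highest. The largest such difference after Pgr was that of Hspa1b, an inducible heat shock protein, at 9.50 to 9.97 in controls and 10.20, 10.90 and 11.68 in stage I (1.22 ± 0.23 SE, adjusted p 0.0720, limma), where replicate 3 was the highest. Ptgds, a prostaglandin D synthase, was at 8.72 to 9.30 and 9.38, 10.05 and 9.34 (0.60, adjusted p 0.485), with replicate 2 the highest. Procr, the endothelial protein C receptor, was at 8.14 to 8.90 and 9.09, 9.26 and 9.05 (0.55, adjusted p 0.279). Vcam1, an adhesion molecule for leukocytes, was at 7.34 to 7.86 and 8.13, 8.14 and 8.11 (0.47, adjusted p 0.278), nearly the same value in all 3 tumors. Tsc22d3, a glucocorticoid- and progestin-induced leucine zipper, was at 9.71 to 10.13 and 10.37, 10.23 and 10.44 (0.41, adjusted p 0.278). In Hspb1, a small heat shock protein, replicate 1 was the highest. Hspb1 was at 9.97 to 10.65 and 11.63, 11.20 and 11.17 (0.93, adjusted p 0.0589). It was called with quantile normalization, with centred medians and with array weights. Hspa1b was called with array weights and without stage I replicate 1.

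In some genes the stage I ovaries were far apart, without a difference between the groups that passed. Lipg, an endothelial lipase, was at 7.32, 10.43 and 10.83 in stage I against 10.16 to 11.73 in controls, and Megf10, a phagocytic receptor, at 6.39, 9.58 and 9.80 against 9.31 to 10.08; in both, replicate 1 alone was below the controls. Lifr, the receptor of leukemia inhibitory factor, was at 8.65, 6.75 and 7.16 against 6.08 to 6.29 (1.35, adjusted p 0.151), above all controls in each array. It was called in the fits without stage I replicate 1 and without stage I replicate 2.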
